A study of Rattus norvegicus with 17 samples.

Results

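The right and left middle cerebral arteries (MCAs) of the same rat were compared after a stroke on the right side. Of 17 arrays in the series, 10 came from the 5 rats that gave both arteries, named F8, F10, F12, F15 and F33. These 10 arrays made 5 pairs, each the occluded MCA minus the non-occluded MCA of a rat. A further operated rat, F19, gave a non-occluded MCA alone and entered no difference. The occluded MCAs came from female Wistar rats of 12 weeks in which a filament, passed through the right carotid artery, closed the vessel for 2 h, after which 3 h of reperfusion were allowed. Isoflurane was given while the filament was placed and again for its removal, and the rats were awake in between. The non-occluded MCAs were the left vessels of the same animals and had the same anesthesia, surgery and time. The 6 control MCAs came from other, non-operated females of the same strain and age. Rats in proestrus were left out of all groups. Each array held RNA from the distal segment of a single artery, cleaned of connective tissue and blood. No sham-operated rat was analysed here, and since every occluded artery was a right one and every non-occluded artery a left one, occlusion and side cannot be told apart. The carotid ligations on the operated side likewise belong to every occluded artery.

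The MCA wall consists of contractile smooth muscle around a single layer of endothelium, with adventitial and perivascular cells outside it. Relaxation of the muscle runs largely through nitric oxide, soluble guanylate cyclase and cyclic GMP, and through potassium channels, while calcium channels, stores and peptide or amine receptors drive contraction. After ischemia and reperfusion the wall is known to express chemokines, adhesion molecules and stress genes. A comparison within an animal takes out whatever the animal carried into both of its arteries.

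Array values were log2 signals after robust multi-array averaging (RMA), so a difference of 1 is a 2-fold ratio, and the level of a gene cannot be set against the level of another. The 10 paired arrays had medians between 7.35 and 7.44. Within the rats, 2495 of 13326 genes were higher and 2557 were lower in occluded MCAs at an adjusted p under 0.05 by limma with the rat as a block, which is 18.7% and 19.2% of the genes tested and 37.9% together. Of these, 295 were higher and 131 lower by at least 2-fold. The median difference over all genes was -0.0175. Quantile normalization brings the arrays to a common distribution, so a shift common to all genes could not be seen. All 5 rats had the same sign for 2336 of the genes that rose and 2360 of those that fell. In the other 159 and 197 called genes, 4 of the 5 rats had it. Over all genes tested, called or not, all 5 rats agreed in sign in 44.2%, and a paired call favours such agreement. The differences therefore lay mostly below 2-fold, with medians of 0.427 among genes that rose and -0.374 among those that fell. In whole arteries, fewer cells of a type and less RNA per cell cannot be told apart.

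The largest increase of all genes called was that of Ccl2. This chemokine, which attracts monocytes, measured 12.61, 12.31, 11.84, 12.49 and 12.61 in the occluded MCAs of F8, F10, F12, F15 and F33. In the non-occluded MCAs of the same rats, in the same order, it measured 7.67, 6.32, 7.98, 7.15 and 7.68, and the 6 control MCAs lay between 6.30 and 7.63. The occluded arteries were nearly alike and all far above the others. The mean difference within rats was 5.01 ± 0.78 (SD, n = 5 rats), or 32.2-fold (limma, adjusted p = 9.07e-06). Tfpi2, a secreted inhibitor of serine proteases, measured 9.81, 10.41, 9.63, 10.99 and 10.17 in occluded MCAs, against 5.79, 5.23, 6.22, 5.29 and 5.77 in non-occluded MCAs and 5.31 to 6.19 in control MCAs. Its difference was 4.54 ± 0.91, or 23.3-fold (adjusted p = 2.4e-05), and the non-occluded arteries covered the same range as the controls, apart from F10 and F15 just below it and F12 just above. Adamts4, a protease of cartilage-type proteoglycans, measured 9.54, 9.79, 8.48, 10.01 and 9.26 in occluded MCAs, against 6.07, 5.75, 5.43, 5.48 and 5.55 in non-occluded MCAs, and rose by 3.76 ± 0.56 (adjusted p = 8.86e-06).

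Slc7a5, the light chain of a transporter of large neutral amino acids, rose by nearly as much in every rat. It measured 10.64, 10.78, 10.38, 10.73 and 10.75 in occluded MCAs, against 7.49, 7.42, 7.53, 7.57 and 7.89 in non-occluded MCAs and 7.18 to 8.27 in control MCAs. The difference was 3.08 ± 0.22 (adjusted p = 1.43e-06), and the 5 occluded arteries lay within a narrow band. A2m, the protease inhibitor alpha-2-macroglobulin and an acute-phase protein in the rat, measured 10.11, 10.86, 10.23, 11.05 and 10.44 in occluded MCAs, against 7.47, 8.26, 6.70, 7.42 and 7.59 in non-occluded MCAs. Its controls lay at 6.01 to 7.05, below 4 of the 5 non-occluded arteries, and its difference was 3.05 ± 0.49 (adjusted p = 1.24e-05). Spp1, the matricellular protein osteopontin, had a similar order, with 12.20 to 12.52 in occluded MCAs, 9.21 to 9.87 in non-occluded MCAs and 7.90 to 8.90 in control MCAs, and a difference of 2.86 ± 0.25 (adjusted p = 2.58e-06). Here both arteries of the operated rats lay above all controls.

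The other genes among the 15 with the largest increase lay between 2.61 and 2.91. Leukemia inhibitory factor (Lif), a cytokine that signals through STAT3, rose by 2.91 ± 1.00. The mitochondrial folate enzymes Aldh1l2 and Mthfd2 rose by 2.91 ± 0.46 and 2.88 ± 0.45. The chemokines Cxcl1 and Ccl7 rose by 2.85 ± 0.79 and 2.66 ± 0.99, the ectonucleotidase Enpp3 by 2.74 ± 0.41, and the cytokine-signal inhibitor Socs3 by 2.68 ± 0.57. Ptgir, the prostacyclin receptor, rose by 2.65 ± 0.31, and Birc3, an inhibitor of apoptosis in TNF receptor complexes, by 2.61 ± 0.82. For all 15 genes the lowest occluded artery lay above the highest non-occluded artery, whereas the groups did not overlap in 23.9% of all genes tested.

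Decreases were smaller. Rergl, a small GTPase-like protein of the Ras family, measured 6.04, 6.34, 7.59, 5.27 and 5.94 in occluded MCAs, against 8.93, 9.40, 9.70, 9.16 and 8.55 in non-occluded MCAs and 8.51 to 9.56 in control MCAs. The difference was -2.91 ± 0.65 (adjusted p = 3.89e-05), smallest in F12 and largest in F15. Mrgprh, a Mas-related G protein-coupled receptor, measured 7.72, 7.76, 8.74, 7.08 and 7.77 in occluded MCAs, against 10.13, 10.30, 10.32, 10.35 and 10.51 in non-occluded MCAs, and fell by 2.51 ± 0.61 on the log2 scale (adjusted p = 5.94e-05). The non-occluded arteries of both genes spanned much less than the occluded ones. The remaining 13 of the 15 largest decreases lay between -2.38 and -1.67. Among them were Klhl38 (-2.38 ± 0.72), the kinase-anchoring protein Akap6 (-2.13 ± 0.37), the LIM-domain protein Fhl5 (-1.98 ± 0.49), the elongation factor 2 kinase Eef2k (-1.85 ± 0.38), the LIM protein Csrp2 (-1.69 ± 0.32) and Mas1, the receptor for angiotensin 1-7 (-1.67 ± 0.29). Non-occluded arteries lay above all controls for Eef2k (10.28 to 10.65, controls 9.60 to 10.14) and Csrp2 (10.50 to 10.84, controls 9.45 to 10.13). Occluded arteries of both genes lay below all controls. For Klhl38, Akap6, Fhl5 and Mas1 the non-occluded arteries overlapped the controls.

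**Figure D1:**
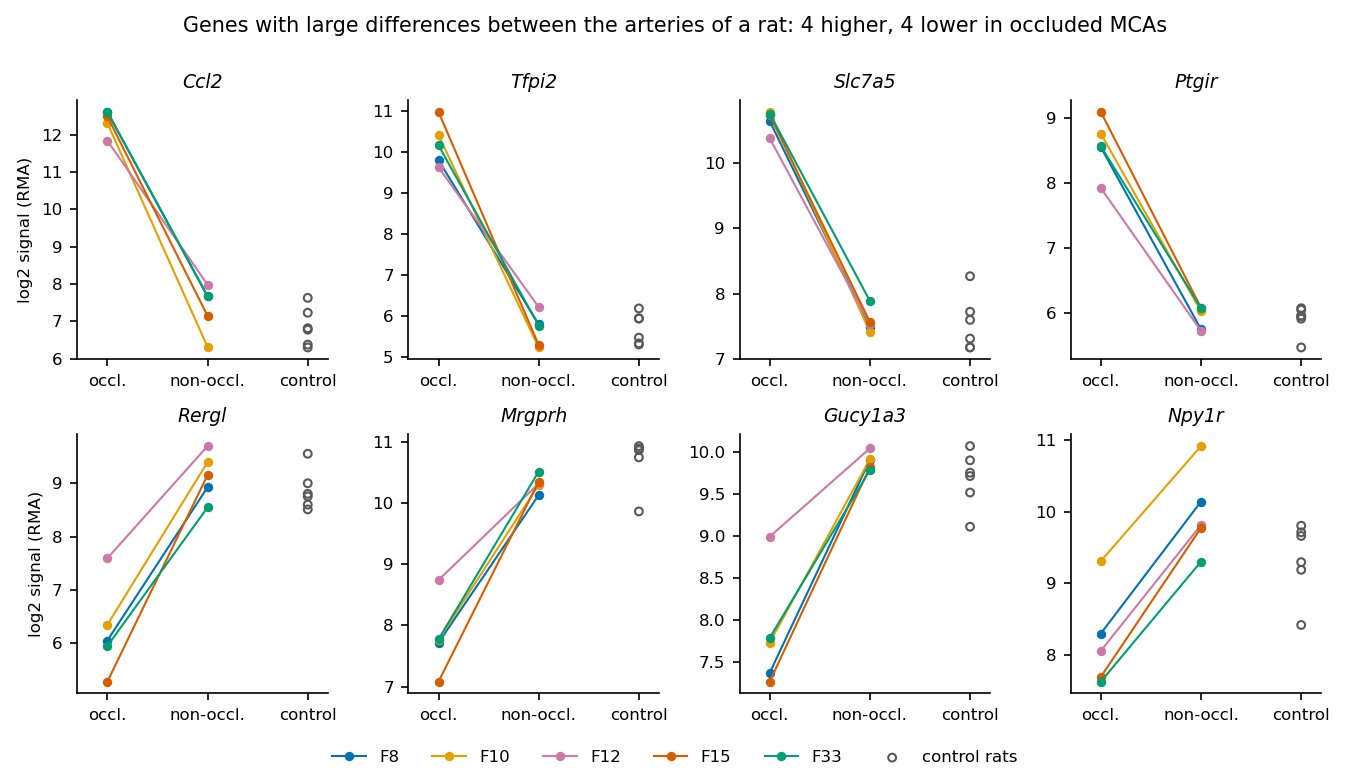
Log2 signal (RMA, vertical axis) of 8 genes in the occluded MCA and the non-occluded MCA of each rat, joined by a line in the colour of the rat, with the 6 control rats as open circles. Ccl2, Tfpi2, Slc7a5 and Ptgir were higher and Rergl, Mrgprh, Gucy1a3 and Npy1r lower in the occluded artery of all 5 rats; in Npy1r the lines run almost parallel at different heights.

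Of the transcripts that had been picked for qPCR from these arrays, and are therefore no independent choice, the 7 reported here all rose. Besides Ccl2, Adamts4 and Socs3, these were Fosl1 (2.47 ± 0.72), Olr1 (1.89 ± 0.74), Junb (1.41 ± 0.59) and S1pr3 (1.40 ± 0.41). Fosl1, a Fos-family transcription factor, measured 7.05, 8.53, 8.60, 8.96 and 9.15 in occluded MCAs, against 5.84, 5.82, 6.03, 6.12 and 6.13 in non-occluded MCAs, so F8 lay well below the other occluded arteries. Olr1, the lectin-like receptor for oxidized low density lipoprotein, measured 8.15, 9.77, 8.33, 9.19 and 9.10 in occluded MCAs, against 6.50, 6.58, 6.95, 7.63 and 7.45 in non-occluded MCAs. The difference in F10 was 3.19, whereas the other 4 rats lay between 1.37 and 1.66. An exact two-sided permutation test that flips the sign of the difference in each rat gave p = 0.0625 for each of the 7, which is the smallest p that 5 rats allow. The limma adjusted p of the 7 lay between 8.86e-06 and 0.000707.

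The size of the response differed from rat to rat. Over the 295 genes that rose at least 2-fold, the median difference was 1.4 in F8, 1.59 in F10, 1.08 in F12, 1.64 in F15 and 1.43 in F33. Over the 131 genes that fell at least 2-fold it was -1.22, -1.16, -0.895, -1.6 and -1.17. F12 had the smallest difference of the 5 rats in 170 of the 295 genes and in 82 of the 131, and F15 the largest in 134 and 100. Over the 295 genes, the occluded artery of F12 measured -0.44 relative to the mean of the other 4 occluded arteries (median over genes), and its non-occluded artery -0.092 relative to the other 4 non-occluded arteries. The same comparison gave 0.362 for the occluded and 0.0417 for the non-occluded artery of F15. Over the 131 genes it gave 0.451 for the occluded and 0.0635 for the non-occluded artery of F12, and -0.34 and 0.141 for those of F15, so that both arteries of F15 stood off from the others there. These genes were chosen by the mean over the same rats, so the values describe the rats and test nothing. A 2-fold difference was reached in all 5 rats by 132 of the 295 genes and by 30 of the 131.

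**Figure D2:**
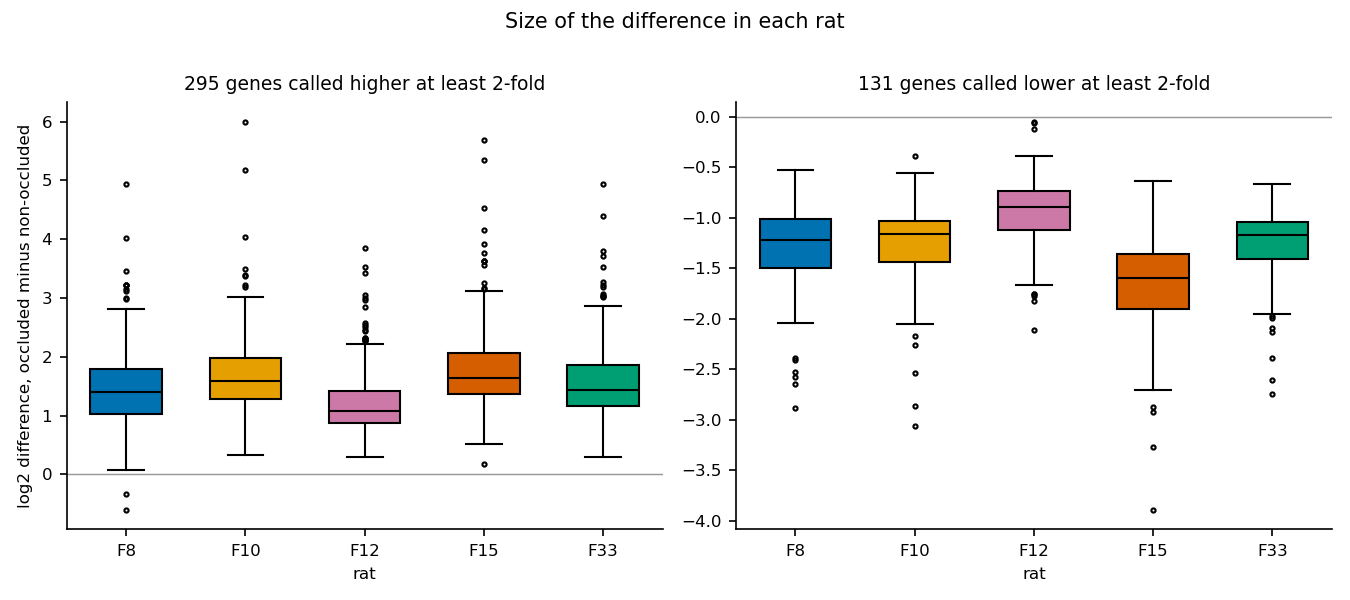
Difference in log2 signal, occluded minus non-occluded MCA (vertical axis), in each of the 5 rats (horizontal axis) for the 295 genes called higher (left) and the 131 genes called lower (right) at least 2-fold. Lines mark medians, boxes the quartiles, whiskers 1.5 times the box height and dots single genes; the boxes of F12 lie nearest to 0 and those of F15 farthest.

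The pattern over genes was shared all the same. Across all genes tested, which are not independent of one another, the differences of any 2 rats correlated with r between 0.696 and 0.855 (description only), and the lowest values were those with F8. With a rat left out, 3866 to 4785 genes were called in the remaining 4. Of these, 90.1% had the same sign in F8 when F8 was the rat left out, 92.5% in F12, 96.6% in F10, 97.1% in F15 and 97.6% in F33. Among the 5052 called genes, a sign opposite to the mean was most often that of F8 (63 genes that rose, 69 that fell) or F12 (52 and 67).

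Some genes changed by nearly the same amount in every rat. Mettl9, a methyltransferase, measured 9.25, 9.12, 9.17, 9.13 and 9.12 in occluded MCAs, against 8.82, 8.68, 8.76, 8.72 and 8.67 in non-occluded MCAs, a difference of 0.43 ± 0.02 (adjusted p = 0.000454). Jak1, the kinase of cytokine receptors, rose by 0.40 ± 0.02 (adjusted p = 0.000666). Both changes are small but exceeded the spread between rats many times over. Larger steady increases were those of Itpk1, an inositol phosphate kinase (1.30 ± 0.06), Casp4, an inflammatory caspase (2.25 ± 0.14), Fgl2, a fibrinogen-like protein (2.04 ± 0.14), and Samd3 (2.54 ± 0.13). These genes were picked for a high ratio of mean to SD, so the small SDs are a description.

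At the other end, Glrx, the thiol-repair enzyme glutaredoxin, measured 7.15, 9.26, 8.87, 9.32 and 10.01 in occluded MCAs, against 7.49, 6.99, 6.87, 7.07 and 7.69 in non-occluded MCAs and 6.50 to 7.42 in control MCAs. It rose by 2.00 to 2.33 in 4 rats and differed by -0.34 in F8 (mean 1.70 ± 1.15, adjusted p = 0.00641), and the call was lost without moderation. The occluded artery of F8 was the only one of the 5 within the control range. Cxcl13, the B cell chemokine, rose by 0.76 in F8 and by 2.12 to 3.80 in the others, and Lif by 1.60 in F8 and 2.32 to 4.16 in the others. Stc1, the glycoprotein hormone stanniocalcin, ranged from 0.99 in F12 to 3.63 in F15.

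Chemokines included the gene with the largest change of all, Ccl2. Of 21 measured, 12 rose and 0 fell, beside 18.7% and 19.2% among all genes. Falls were 0 also at an unadjusted p under 0.05 by limma, here and in the lists of NF-kappaB, integrated stress response, synthetase, ribosome assembly and interferon genes described further on. Cxcl2 rose by 2.17, Ccl3 by 1.48, Cxcl10 by 1.39, Ccl22 by 0.96 and Cxcl5 by 0.90. These ligands attract neutrophils (Cxcl1, Cxcl2, Cxcl5), monocytes (Ccl2, Ccl7) or T cells (Cxcl10, Ccl22). Among adhesion molecules, 4 of 13 rose and 4 fell. Icam1, the endothelial ligand of leukocyte integrins, measured 10.85, 10.97, 10.58, 11.11 and 10.91 in occluded MCAs, against 9.14, 8.99, 9.13, 9.30 and 9.36 in non-occluded MCAs, a difference of 1.70 ± 0.21 (adjusted p = 9.07e-06). Its non-occluded arteries all lay above the controls at 8.52 to 8.97. Vcam1 rose by 0.72 and Cd44 by 1.34, while Jam3 (-0.88), Icam2 (-0.75) and Mcam (-0.49) fell.

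Of the NF-kappaB proteins and their inhibitors, 20 of 23 rose and 0 fell. Bcl3, a nuclear co-factor of the pathway, measured 9.46, 9.52, 8.90, 9.96 and 9.52 in occluded MCAs, against 7.28, 7.42, 7.33, 7.30 and 7.40 in non-occluded MCAs, and both lay above the controls at 6.12 to 6.63. It rose by 2.13 ± 0.38, Nfkbiz by 1.61, Nfkbie by 1.43, Tnip2 by 1.38 and Nfkb2 by 1.02. The list holds transcription factors and their inhibitors alike, and both kinds rose. Sites for this factor were searched in the promoters that RefSeq gives for the rat (assembly GRCr8, 250 bases before to 50 bases after the start of each gene), by name alone and on both strands. They were present in 8 of 18 promoters of the risen genes of this list and in 5 of 10 of the risen chemokines, beside 5.46% of all 27457 promoters of this length. The stretches of 80 bases below show the matches, in capitals, for 3 chemokines and 3 genes of the pathway.
Cxcl1 (chr14:17479360-17479439, minus strand): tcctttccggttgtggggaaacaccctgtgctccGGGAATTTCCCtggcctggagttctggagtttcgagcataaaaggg
Cxcl2 (chr14:17467284-17467363, minus strand): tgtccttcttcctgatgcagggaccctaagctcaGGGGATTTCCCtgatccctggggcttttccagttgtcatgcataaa
Cxcl10 (chr14:15988903-15988982, plus strand): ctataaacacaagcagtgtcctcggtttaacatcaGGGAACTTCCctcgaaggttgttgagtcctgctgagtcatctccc
Bcl3 (chr1:88613549-88613628, minus strand): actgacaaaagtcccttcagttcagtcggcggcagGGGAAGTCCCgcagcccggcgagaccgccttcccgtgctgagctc
Nfkbiz (chr11:58251673-58251752, plus strand): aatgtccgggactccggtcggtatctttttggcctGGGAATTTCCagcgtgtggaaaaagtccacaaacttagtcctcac
Nfkbie (chr9:22947992-22948071, minus strand): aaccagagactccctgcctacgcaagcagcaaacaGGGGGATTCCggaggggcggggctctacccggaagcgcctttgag
In Cxcl1 and Cxcl2 the capitals hold a match on each strand, offset by 1 base. A match describes the letters and says nothing of binding in these arteries. Sites of other factors were searched in every list too, and those shares are given only in part.

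Interleukin-6 family and JAK-STAT genes rose in 15 and fell in 6 of 30. Osmr, the receptor of oncostatin M, measured 11.77, 11.90, 11.50, 11.94 and 11.75 in occluded MCAs, against 9.79, 10.24, 9.67, 9.82 and 9.80 in non-occluded MCAs and 8.11 to 8.87 in control MCAs. It rose by 1.91 ± 0.18 (adjusted p = 3.95e-06), and neither operated artery overlapped the controls. Il6r rose, as did Cish by 1.20, Stat3 by 0.85 and the shared receptor chain Il6st by 0.69, whereas Lifr, the receptor of Lif, fell by 0.80 on the log2 scale. AP-1 and other immediate early genes rose in 16 and fell in 2 of 27. Myc (1.75), Ier3 (1.30), Ier5 (1.15) and the stress factor Atf3 (0.98) rose. Srf, the serum response factor, fell by 0.47 on the log2 scale. The count of 16 was 10 with the paired statistic computed without moderation. Fos itself ranged from -0.49 to 2.31 among the rats and was not called (mean 0.83), which was chosen for mention after its values were seen.

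Genes of amino acid supply and tRNA charging rose together. In the integrated stress response list 20 of 27 rose and 0 fell. Atf4, its central transcription factor, measured 11.07, 11.28, 10.93, 11.23 and 11.01 in occluded MCAs, against 9.93, 10.11, 10.13, 10.18 and 10.06 in non-occluded MCAs, a difference of 1.02 ± 0.15 (adjusted p = 3.29e-05). Asns, asparagine synthetase, rose by 2.27 and the serine enzyme Shmt2 by 2.10. Of the 20 cytosolic aminoacyl-tRNA synthetases, which load amino acids onto their tRNAs, 18 rose and 0 fell, with a median of 0.804. Yars, for tyrosine, measured 10.22, 10.23, 9.79, 10.15 and 9.83 in occluded MCAs, against 8.19, 8.01, 8.05, 8.15 and 8.19 in non-occluded MCAs and 7.75 to 7.93 in control MCAs. It rose by 1.92 ± 0.24 (adjusted p = 7.66e-06), and all non-occluded arteries were above all controls. Cars (1.70), Tars (1.24), Aars (1.23), Nars (1.02), Mars (0.92) and Iars also rose. Farsa (0.17) and Qars (0.12) were not called and complete the list.

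The response element for C/EBP and ATF factors, searched as TGATGNAAN on both strands, was present in 7 of the 15 risen synthetases with a promoter in the table (46.7%) and in 3.8% of all promoters of 300 bases. These 7 were Yars, Cars, Tars, Aars, Iars, Nars and Mars, and the risen synthetases without the element are not named here. Nars was named outside the naming rule, after its values were seen. In the integrated stress response list it was present in 3 of 17. Their stretches of 80 bases follow, with the element in capitals, since the same letters recur in gene after gene.
Yars (chr5:146820133-146820212, plus strand): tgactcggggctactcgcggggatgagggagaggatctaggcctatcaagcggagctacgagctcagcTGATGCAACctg
Cars (chr1:208225320-208225399, minus strand): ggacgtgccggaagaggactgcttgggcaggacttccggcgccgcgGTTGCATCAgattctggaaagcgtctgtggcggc
Tars (chr2:62114787-62114866, minus strand): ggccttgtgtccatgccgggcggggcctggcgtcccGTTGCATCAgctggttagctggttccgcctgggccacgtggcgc
Aars (chr19:55908452-55908531, plus strand): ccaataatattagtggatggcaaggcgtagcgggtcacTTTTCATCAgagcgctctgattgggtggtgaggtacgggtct
Iars (chr17:15193634-15193713, minus strand): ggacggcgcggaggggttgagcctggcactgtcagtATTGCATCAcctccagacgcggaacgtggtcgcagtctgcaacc
Nars (chr18:60275753-60275832, minus strand): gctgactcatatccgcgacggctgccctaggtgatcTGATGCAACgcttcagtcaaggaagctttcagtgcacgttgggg
Mars (chr7:65023728-65023807, minus strand): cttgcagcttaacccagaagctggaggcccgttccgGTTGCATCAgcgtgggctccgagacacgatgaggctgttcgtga
Yars and Nars carry the element in the direction of transcription and the other 5 in the opposite one. Counted from the first transcribed base as 1, the matches began between position -28 (Tars) and position 39 (Yars).

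Ribosome assembly, the making of ribosomes in the nucleolus, was the only list in which every measured member rose, 41 of 41. The changes were moderate, from 0.303 to 1.28 with a median of 0.609, and the list fell to 23 called genes where a change of at least 1.5-fold was also asked. Heatr1, a factor of the small subunit processome, measured 7.93, 8.08, 7.94, 8.28 and 8.19 in occluded MCAs, against 6.86, 6.65, 6.80, 6.81 and 6.89 in non-occluded MCAs and 6.16 to 6.76 in control MCAs, a difference of 1.28 ± 0.18 (adjusted p = 2.16e-05). Rcl1 rose by 1.18, the box C/D protein Nop56 by 1.12, and the helicase Ddx21 by 1.00. The finished ribosome gave another picture. Of 39 cytosolic ribosomal proteins 3 rose and 0 fell by limma (3 and 3 at an unadjusted p under 0.05), with a median of 0.00591 and a range of -0.234 to 0.272.

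**Figure D3:**
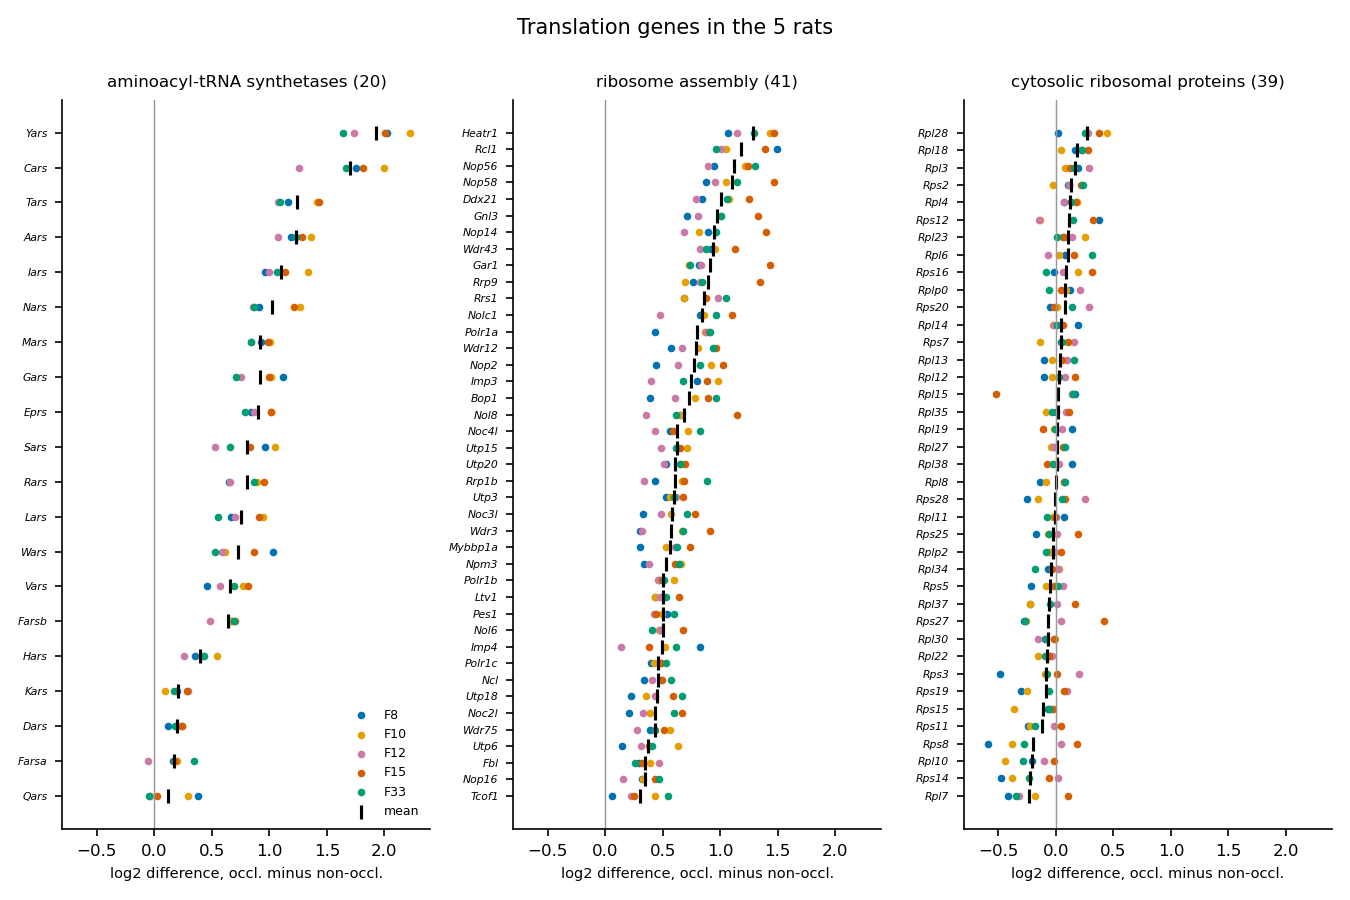
Difference in log2 signal, occluded minus non-occluded MCA (horizontal axis), for each measured gene (vertical axis) of 3 lists, with a dot per rat and a bar at the mean. The 41 ribosome assembly genes and most of the 20 synthetases lie right of 0 in all 5 rats, while the 39 ribosomal proteins lie around 0.

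Other stress genes were mixed. Metallothioneins and zinc transporters rose in 9 and fell in 1 of 13. Mt1a, a metal-binding protein, measured 12.87, 13.24, 12.65, 13.00 and 13.07 in occluded MCAs, against 10.77, 11.87, 11.17, 11.19 and 11.54 in non-occluded MCAs and 9.46 to 10.41 in control MCAs, so the non-occluded arteries lay between the other groups. It rose by 1.66 ± 0.30 (adjusted p = 2.4e-05), and Slc39a14, a zinc importer, by 1.85. In the list of NRF2 targets and redox enzymes 10 of 29 rose and 5 fell, the fallen count being 3 without F33. Thioredoxin reductase Txnrd1 rose by 1.36, mitochondrial superoxide dismutase Sod2 by 1.48 and the glutamate-cysteine ligase subunit Gclc by 0.71, while catalase (Cat) fell by 0.54 on the log2 scale. Hmox1, heme oxygenase, had 0.87 to 1.02 in F8, F10 and F12 and 2.33 to 2.41 in F15 and F33. Heat shock genes rose in 6 and fell in 6 of 27. The unfolded protein response of the endoplasmic reticulum rose in 7 and fell in 1 of 24, with Atf6 at 0.71 and Xbp1 at 0.45, and without the block 4 were called higher.

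Metabolic genes moved in both directions. Of the glycolysis and hypoxia list 15 of 34 rose and 5 fell. Hk2, hexokinase 2, measured 9.10, 9.54, 9.39, 9.90 and 9.79 in occluded MCAs, against 7.72, 7.49, 7.74, 7.99 and 7.96 in non-occluded MCAs, a difference of 1.76 ± 0.26 (adjusted p = 1.32e-05), and Hif1a rose by 0.99. The muscle phosphofructokinase Pfkm (-0.79) and the oxygen sensor Egln1 (-0.41) fell. Fatty acid oxidation was lower in 14 of 31, with 1 higher. The co-activator Ppargc1b measured 5.40, 5.58, 6.32, 5.32 and 5.89 in occluded MCAs, against 6.99, 7.27, 7.42, 7.42 and 7.34 in non-occluded MCAs, a difference of -1.59 ± 0.36 (adjusted p = 5.85e-05). The acyl-CoA dehydrogenases Acadl (-1.16) and Acadm (-0.74), the dehydrogenase Hadh (-1.01) and the carnitine transferase Cpt1a (-0.81) fell as well. Cpt1a measured 8.12 to 8.87 in occluded, 9.29 to 9.71 in non-occluded and 8.60 to 9.04 in control MCAs. Its non-occluded arteries thus lay above all controls, while those of Acadl, Acadm and Hadh overlapped the controls. The gene that rose was Ppard, a nuclear receptor (1.17 ± 0.19). Oxidative phosphorylation was lower in 11 of 38 and higher in 0 (also 0 at an unadjusted p under 0.05 by limma), the largest fall being -0.345, and 7 were lower without F10, F12 or F33. Cholesterol synthesis rose in 11 and fell in 1 of 25, the risen ones including lanosterol synthase Lss (1.02) and Hsd17b7 (0.88). Mean log2 levels of this list were 7.77 to 8.3 in occluded, 7.64 to 7.92 in non-occluded and 7.85 to 8.12 in control MCAs. The occluded arteries thus spanned the whole control range.

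In the contractile apparatus of smooth muscle, 22 of 31 genes fell and 2 rose, the largest share of falls among the 34 gene lists. The 22 were 8 where a change of at least 1.5-fold was also asked. Myocd, the co-activator of smooth muscle genes, measured 8.02, 8.40, 9.35, 8.61 and 8.72 in occluded MCAs, against 9.97, 9.73, 10.13, 10.53 and 10.13 in non-occluded MCAs and 9.27 to 10.22 in control MCAs. Its difference was -1.47 ± 0.48 (adjusted p = 0.000243), smallest in F12. Pdlim3 (-1.38), Lmod1 (-1.13), the kinase Rock1, the myosin phosphatase subunit Ppp1r12a (-0.77) and smoothelin, Smtn (-0.73), fell, whereas the related kinase Rock2 rose by 0.51. Transgelin, Tagln, had a difference of -0.12 and was not called, and the myosin heavy chain Myh11 fell by 0.16 on the log2 scale (adjusted p = 0.0498), a call that was lost whichever rat was left out.

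Nitric oxide and cyclic GMP genes were lower in 12 and higher in 5 of 22. Where a change of at least 1.5-fold was also asked, 2 were lower and 2 higher. Gucy1a3, the alpha subunit of soluble guanylate cyclase, measured 7.37, 7.73, 8.99, 7.27 and 7.79 in occluded MCAs, against 9.90, 9.91, 10.04, 9.81 and 9.78 in non-occluded MCAs and 9.11 to 10.06 in control MCAs. The non-occluded arteries stood close together and the occluded ones apart from them, with F12 nearest, and the difference was -2.06 ± 0.61 (adjusted p = 0.000139). The beta subunit Gucy1b3 fell by 1.24 on the log2 scale, the phosphodiesterase Pde5a by 0.58 and the further alpha subunit Gucy1a2 by 0.57. Gch1, which makes the cofactor of nitric oxide synthase, rose by 1.12 and Ddah1, which breaks down its natural inhibitors, by 1.05. The count of 5 was 3 without F10, without F33 or without the dimmest probe sets, and 2 without moderation.

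Among potassium channels 10 of 26 fell and 5 rose. Kcna5 fell by 1.56 ± 0.66 and Kcna2 by 1.14, both voltage-gated pore subunits. The subunits of the vascular ATP-sensitive channel rose together, Kcnj8 (1.68 ± 0.53) with 8.82, 9.21, 7.86, 8.97 and 8.58 in occluded MCAs, against 7.16, 6.87, 6.90, 6.96 and 7.13 in non-occluded MCAs, and its partner Abcc9. Of the calcium channels and stores 16 of 33 fell and 8 rose. The falls included the calcium pump Atp2a3 (-1.07), its regulator phospholamban, Pln (-0.72), and the release channel Ryr2 (-0.90). Trpc6, a cation channel of the plasma membrane, measured 8.78, 9.36, 9.00, 9.33 and 9.28 in occluded MCAs, against 7.64, 6.61, 7.30, 7.22 and 7.95 in non-occluded MCAs, and rose by 1.80 ± 0.65 (adjusted p = 0.000316). Its lowest occluded artery lay above its highest non-occluded artery. The 8 risen genes of this list were 5 without F10, F12 or F33.

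Receptors for vasoactive agents rose in 14 and fell in 9 of 42. Beside Ptgir, the vasopressin receptor Avpr1a measured 10.07, 10.21, 9.45, 10.33 and 9.82 in occluded MCAs, against 7.84, 7.93, 7.67, 7.60 and 7.41 in non-occluded MCAs, a difference of 2.29 ± 0.34 (adjusted p = 1.15e-05). The nucleotide receptor P2ry6 rose by 1.27, the endothelin A receptor Ednra by 0.65 and the prostaglandin receptor Ptger4 by 0.75. Npy1r, the neuropeptide Y receptor of contraction, showed what pairing adds. It measured 8.30, 9.31, 8.06, 7.70 and 7.63 in occluded MCAs, against 10.14, 10.91, 9.81, 9.77 and 9.30 in non-occluded MCAs, so that the highest occluded artery, of F10, just exceeded the lowest non-occluded artery, of F33. Within rats the difference was -1.79 ± 0.18 (adjusted p = 4.99e-06), against an adjusted p of 0.00192 without the block.

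Junction genes fell in 11 and rose in 4 of 28, and 7 fell without the block. Claudin 5 (Cldn5), a tight junction protein of brain endothelium, measured 9.36, 9.58, 10.92, 8.71 and 9.73 in occluded MCAs, against 10.60, 11.17, 10.99, 10.80 and 10.87 in non-occluded MCAs and 10.33 to 10.80 in control MCAs. The difference was -1.22 ± 0.75 (adjusted p = 0.00422) but only -0.07 in F12, whose occluded artery stayed within the range of the non-occluded ones, and the call was lost without moderation. Claudin 1 (Cldn1, -0.84) and Cgnl1 (-0.72) fell with less spread. Gja1, the gap junction protein connexin 43, rose by 1.58 ± 0.29 (adjusted p = 2.82e-05).

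Extracellular proteases and their inhibitors rose in 14 and fell in 5 of 28, the falls being 3 without F15 or F33. Timp1, an inhibitor of matrix metalloproteases, rose by 1.80, the sheddase Adam9 by 1.77, Adamts9 by 2.30 and Adamts1 by 1.58. Coagulation and fibrinolysis genes rose in 10 and fell in 2 of 24, with the protein C receptor Procr at 2.27 ± 0.71 and thrombomodulin (Thbd) at 0.62. That count of 10 was 4 without moderation. Matrix genes rose in 5 and fell in 8 of 46, and the collagens Col4a1 (-0.03) and Col1a1 (-0.23), named after their values were seen, were not called. Among growth factors and receptors 16 of 34 rose and 9 fell. Hgf, hepatocyte growth factor, rose by 2.15 ± 0.24 (adjusted p = 4.2e-06), Angptl4 by 2.44 ± 0.44, and Pdgfrb, the receptor on mural cells, fell by 0.96 on the log2 scale. Notch, BMP and TGF-beta genes rose in 12 and fell in 13 of 41, with Tgfb2 at 1.41 and Smad9 at -1.28, the risen count being 7 without F15.

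Cell death regulators rose in 19 and fell in 3 of 38, among them Casp4, Birc2 (1.37), the necroptosis kinase Ripk3 (1.46) and Tnfrsf1a (1.19). In the interferon and antigen presentation list 14 of 34 rose and 0 fell, and the risen ones included Ifitm3 (1.08), Ifit3 (1.17) and Ifitm1 (1.25). Cell cycle genes rose in 9 and fell in 3 of 30, and the risen ones included the growth arrest genes Gadd45b (1.14), Gadd45g (2.42) and Btg1 (1.01) and the replication factor Mcm4 (1.20). Kruppel-like factors rose in 2 and fell in 4 of 13, with the flow-responsive Klf2 at -0.62. Glucocorticoid targets rose in 9 and fell in 10 of 22. Their members moved apart, with Map3k6 at 0.83 and Tsc22d3 at -0.93, and 5 rose without the block. Mean log2 levels of this list were 9.31 to 9.6 in occluded, 9.05 to 9.65 in non-occluded and 8.11 to 8.67 in control MCAs. In this mean both arteries of the operated rats lay above all controls.

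**Figure D4:**
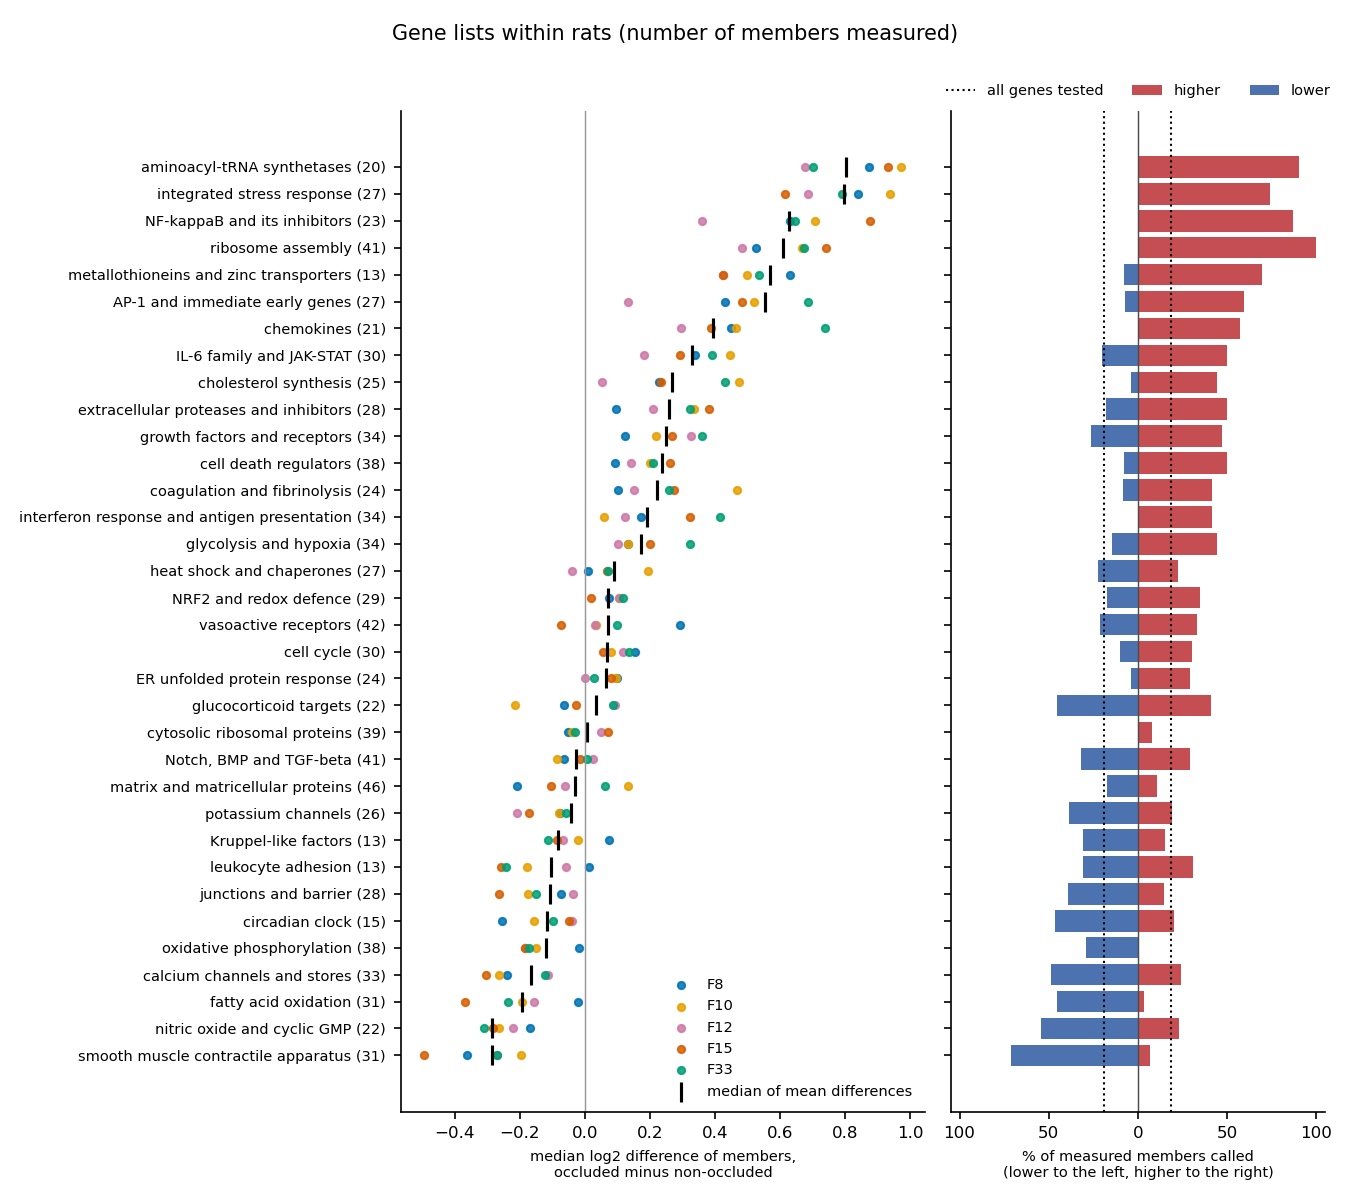
Left, median difference in log2 signal over the members of each gene list, occluded minus non-occluded MCA, with a dot per rat and a bar at the median of the mean differences. Right, share of measured members called higher or lower (percent), with dotted lines at 18.7% and 19.2% for all genes tested; aminoacyl-tRNA synthetases lie at the top and the smooth muscle contractile apparatus at the bottom.

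Several genes differed more between rats than between arteries. Clock genes were among them. Arntl, the core activator of the circadian clock, measured 8.77 and 9.33 in the occluded MCAs of F8 and F10, against 9.08 and 9.33 in their non-occluded MCAs. In F12, F15 and F33 it measured 7.78, 8.05 and 7.35 in occluded MCAs, against 6.81, 6.87 and 6.47 in non-occluded MCAs. The difference was -0.31 and -0.01 in the first 2 rats and 0.97, 1.18 and 0.88 in the other 3, and was not called (mean 0.54 ± 0.66, adjusted p = 0.0741). The control rats spread over 6.64 to 8.97. The time of day at which each rat was killed was not stated in the labels or methods, and its part in these levels was not tested.

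Tef and Per3, further genes of the clock, ran the other way between rats and were lower on the occluded side of each. Tef measured 6.88, 6.15, 8.10, 7.49 and 7.79 in occluded MCAs, against 7.34, 7.30, 8.69, 8.58 and 8.92 in non-occluded MCAs. The groups overlapped widely, F8 and F10 being low on both sides, yet every rat had less in the occluded artery (-0.89 ± 0.33, adjusted p = 0.000617, against 0.124 without the block). Per3 measured 7.40, 6.85, 8.29, 7.97 and 8.28 in occluded MCAs, against 7.90, 7.28, 8.64, 8.70 and 8.89 in non-occluded MCAs (-0.52 ± 0.15, adjusted p = 0.000689, against 0.273 without the block), a call that was also lost with the rat as a random block. Of 15 clock genes 7 were lower and 3 higher with the rat as a block, all 7 lower calls were lost without it, and 1 was kept with the rat as a random block. The repressors Nfil3 (0.95) and Bhlhe40 (1.24) rose.

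Lcn2, the iron-binding acute-phase protein lipocalin 2, measured 10.35, 9.90, 7.65, 9.45 and 7.76 in occluded MCAs, against 9.26, 9.15, 6.74, 9.28 and 5.67 in non-occluded MCAs and 5.51 to 6.20 in control MCAs. F8, F10 and F15 were thus high in both arteries, and F12 and F33 low in both, with the non-occluded artery of F33 inside the control range. The difference was 1.00 ± 0.70, from 0.18 in F15 to 2.10 in F33 (adjusted p = 0.00809, against 0.36 without the block), and the call was lost with the rat as a random block or without moderation. P-selectin (Selp), the endothelial adhesion molecule stored in granules, divided the rats the same way. It measured 9.13, 8.97, 5.75, 8.40 and 6.63 in occluded MCAs, against 6.89, 6.78, 5.44, 6.80 and 5.04 in non-occluded MCAs, and rose by 1.58 ± 0.78 (adjusted p = 0.00145, against 0.0846 without the block). No control values of Selp were in the tables used here.

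**Figure D5:**
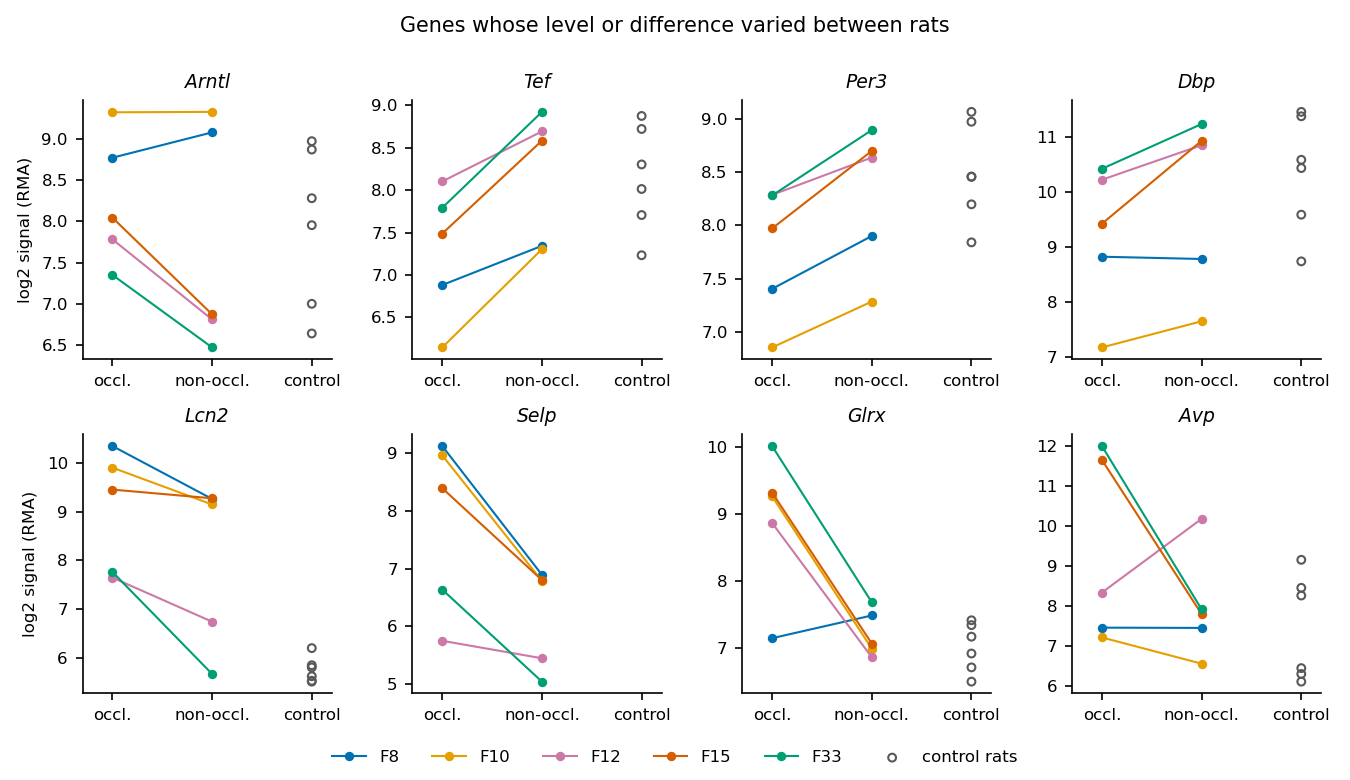
Log2 signal (RMA, vertical axis) of 8 further genes, each rat's occluded MCA joined to its non-occluded MCA by a line in the colour of the rat, with 6 open circles for the control rats (none for Selp). F8 and F10 stand apart in Arntl, Tef, Per3 and Dbp, F12 and F33 in Lcn2 and Selp, F8 in Glrx, and F15 and F33 in the occluded arteries for Avp.

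Setting the paired fit against the fit without the block, 4248 genes were called in both, 804 only when paired and 110 only when unpaired. For Ccl2 the block made no difference to the call, with an adjusted p of 9.07e-06 with it and 8.08e-07 without it. Beside Tef, Lcn2 and Selp, the largest changes called only when paired included the small heat shock protein Hspb7 (-1.06 ± 0.46, adjusted p = 0.000946, against 0.0571 without the block), the cation exporter Slc47a1 (1.02 ± 0.69) and E-cadherin, Cdh1 (0.82 ± 0.65). The calls of Slc47a1 and Cdh1 were also lost without moderation and with the rat as a random block over 17 arrays, and that of Cdh1 with a random block over 11 arrays.

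Marker lists of single cell types were short, and their counts stand beside 18.7% higher and 19.2% lower among all genes. Mean log2 levels of 5 smooth muscle markers were 11.3 to 11.7 in occluded MCAs, 11.9 to 12.0 in non-occluded MCAs and 11.6 to 12.1 in control MCAs, and 4 of the 5 fell. Of 8 endothelial markers 2 fell, with means of 8.84 to 9.7, 9.35 to 9.74 and 9.5 to 9.71. Of 6 astrocyte markers 2 rose, Gfap (1.41) and Gja1, which smooth muscle also expresses, with means of 7.61 to 8.98 in occluded MCAs, 6.98 to 8.06 in non-occluded MCAs and 6.67 to 8.35 in control MCAs. The mean differences of the 6 lay between 0.244 and 1.58, with a median of 0.793. Across the main fit and the alternatives, 2 to 5 of them were called higher. The median difference of the 6 was -0.0588 in F8, 0.628 in F12 and 1.07 to 1.99 in the other 3 rats. Of 4 neutrophil markers 1 rose, with means of 5.96 to 6.28, 5.57 to 6.23 and 5.35 to 5.54, and of 9 monocyte and macrophage markers 3 rose and 1 fell, with means of 7.7 to 8.48, 7.73 to 8.33 and 7.38 to 8.29. Platelet (6 measured) and lymphocyte (3) markers gave 0 calls by limma in either direction, 0 at an unadjusted p under 0.05 and 0 without moderation. Of 3 erythrocyte markers 2 fell, beta-globin (Hbb) by 0.72 on the log2 scale. Of 8 pericyte markers 2 rose and 3 fell, of 8 fibroblast and meningeal markers 1 rose, and of 5 neuron markers 1 rose. The fibroblast marker Pdgfra, the neuron marker Nefm and the neutrophil marker Itgam lost their calls without the block and without moderation. Nefm also lost its call when F8, F10 or F15 was left out. The 6 oligodendrocyte markers gave 0 calls by limma, with 1 higher at an unadjusted p under 0.05 and 1 with the rat as a random block. The part of these cells in the gene lists above was not tested.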

How the data were processed

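RNA of single MCAs was hybridised to Affymetrix Rat Gene 2.0 ST arrays. The deposited log2 values were made by the authors with RMA (quantile normalization and log transformation) in Affymetrix Expression Console 1.1.2, and the authors removed, table by table, probe sets whose signal in 80% of samples did not reach the negative-control median. Columns with the authors' own p-values, fold changes, SAM scores and q-values were not used. The genome build behind the array annotation was not stated, and no coordinates were taken from it.

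The difference, occluded minus non-occluded, was tested on 13938 probe sets with limma 3.58.1 in R 4.3.3, with the rat as a fixed block because the labels give both arteries the same rat code. Same-rat arrays deviated from their group means together (r = 0.258 to 0.461, against -0.281 to 0.138 for other pairs). Adjusted p-values are Benjamini-Hochberg over all probe sets, with a threshold of 0.05. A gene was represented by its brightest probe set, and 313 probe sets with several symbols and 5 with none were left out of gene counts. Values after ± are SDs over rats. Arrays give no read depth, and their number limits the precision. The code was tested on simulated data. Other steps ran in Python 3.11.15 (scipy 1.17.1, numpy 2.4.6, pandas 2.3.3).

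Genes were named by rule: the 15 largest differences in each direction with the same sign in 5 of 5 rats, the 6 genes of lowest p in every list, the qPCR targets, the 10 called genes with the largest SD and the 10 with the largest ratio of mean to SD, the 10 uncalled genes that differed most between rats, and the 10 largest called only when paired. Ccl3, Cxcl5, Lifr, Srf, Fos, Atf4, Nars, Farsa, Qars, Hmox1, Myocd, Rock1, Rock2, Kcna5, Trpc6, Ednra, Ptger4, Col4a1, Tsc22d3 and Dbp fell outside it and were chosen after their values were seen. The rats compared and the gene lists were chosen with earlier results of these data known. Promoters of the risen and the fallen genes of every list were also searched for sites of other factors. The AP-1 site, present in 7.33% of all promoters, was in 0 of 11 risen AP-1 list genes and 4 of 6 risen coagulation genes. The NF-kappaB site was in 0 of 11 risen vasoactive receptors. Most of these shares are not reported here. Alternatives were the fit without the block, a random block, no or robust moderation, other centring, filters, thresholds and probe-set rules, and leaving out each rat. SAM was not run. Some list members and 1 qPCR target are not reported here.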

Additional observations from a re-analysis of the deposited data

Results flagged for a closer look

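In sets of 5 values, a value was singled out where its gap to the nearest other value took up more than Dixon's 95% limit of the range. This happened in 8 of 148 sets, and chance singles out about 1 in 20. F12 was the rat in 3 of them: its Klhl38 difference was -1.1443, nearest to 0 of the 5, its occluded Klhl38 value was 7.2951, the highest of the occluded MCAs, and its non-occluded S1pr3 value was 10.1919, the highest of the non-occluded MCAs. F8 was the rat in another 2: its Fosl1 difference of 1.2112 was the lowest, and its median over the oxidative phosphorylation genes, -0.0181, was the highest of the 5. The Olr1 difference in F10 was 3.1864, and its median over the monocyte and macrophage markers was 0.317, both the highest. The median over the neuron markers in F15 was 0.541, the highest.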

How the results depend on the processing

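None of the 301 named genes changed sign under the 18 alternatives while called there or in the main fit. Sign changes of genes called in neither were not counted. The fit without the block, the changes of moderation and the stricter thresholds keep the mean difference, so they could not change a sign. The balance of calls did turn: fewer genes were higher than lower in the main fit (2495 and 2557), and more were without the block, without moderation and with cyclic loess (2576 and 2453). At an adjusted p under 0.01, 1633 genes were higher and 1522 lower, and with at least 1.5-fold asked for, 802 and 550. Leaving out each rat in turn gave 1928 (without F33) to 2344 (without F12) higher and 1938 (without F33) to 2448 (without F8) lower genes. Without the replicate block 2235 were higher and 2123 lower, and without moderation 1891 and 1837. Median centring gave 2321 higher and 2801 lower. Of 249 named genes that were called, 178 kept the call under every alternative that tested them. Some named genes were absent from the alternatives that filtered probe sets, and absence was not counted as a loss. When a rat was left out, 11 of the 249 lost the call, among them Myh11, Flnc, Gldn and Sema3a. Of 44 list counts of 5 or more, 17 moved by over 1.5 times under an alternative other than the stricter thresholds. Without moderation these included cholesterol synthesis (6 higher, 11 in the main fit), vasoactive receptors (8, 14), calcium channels (4, 8), Notch, BMP and TGF-beta (7, 12), junctions (5 lower, 11) and glucocorticoid targets (6 lower, 10). The causes were not tested. With 5 rats and 1 array per artery, differences under 0.158 were never called.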

Other observations

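Rat F19 gave a non-occluded MCA only. Over the 30 genes with the largest differences within rats, its value lay within the range of the other 5 non-occluded MCAs in 18 and beyond it, towards the occluded side, in 11. These genes were picked with the other 5 non-occluded MCAs and without F19, which favours values of F19 on that side. No share over all genes is given beside the counts, so they are a description. Its Lcn2 value was 9.61.

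Avp, the vasopressin gene, measured 7.45, 7.21, 8.33, 11.64 and 11.99 in the occluded MCAs of F8, F10, F12, F15 and F33, against 7.45, 6.55, 10.17, 7.79 and 7.91 in their non-occluded MCAs. The difference was 1.35 ± 2.56 (limma, adjusted p = 0.217), and the highest artery of F12 was the non-occluded one. LOC100362296, annotated as S100-A11-like, measured 7.63 in the occluded and 7.95 in the non-occluded MCA of F8, whereas the other 4 rats lay at 10.13 to 10.92 in occluded and 10.06 to 11.01 in non-occluded MCAs.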
